A study of Mus musculus with 6 samples.

Results

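The subunits of the mitochondrial respiratory chain were examined in tongues of the inbred mouse strain C57BL/6J with and without exposure to the carcinogen 4NQO. Members were the genes whose platform symbol names a nuclear-encoded subunit of complex I (Nduf followed by a, b, c, s or v and a number), complex II (Sdha to Sdhd), complex III (Uqcr), complex IV (Cox4 to Cox8) or complex V (Atp5), each read from the probe set with the highest mean signal among those annotated to that gene alone. They came to 81 of 18193 genes, with 35 in complex I, 4 in complex II, 8 in complex III, 17 in complex IV and 17 in complex V. The rule used names and mean signal and no difference between the groups. A further 7 genes that match these names, Ndufs6 and Ndufa11 among them, had probe sets shared with other genes only and were not counted.

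4NQO (4-nitroquinoline 1-oxide) is a quinoline derivative that damages DNA and gives rise to tumours of the tongue and oesophagus when mice drink it. Adult mice received it at 100 μg/ml in drink for 8 weeks, and the comparison was with adult mice of the same strain that were not treated. Total RNA of the whole dissected tongue was hybridised to Affymetrix arrays, with 3 tongues per group and 1 tongue per array, so that p-values measure the spread between individual tongues. Values are log2 signals, and a difference of 1 is a 2-fold difference. Signals of different probe sets cannot be set against each other, and only changes of a probe set between tongues are compared.

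The respiratory chain passes electrons from NADH through complex I and from succinate through complex II to ubiquinone, then through complex III and cytochrome c to complex IV, which reduces oxygen to water. Complexes I, III and IV pump protons across the inner mitochondrial membrane, and complex V (ATP synthase) uses the gradient to make ATP. The tongue is largely striated muscle covered by a stratified squamous epithelium, and oxidative muscle fibres are rich in mitochondria. Several complex IV subunits exist as a form typical of heart and skeletal muscle and a form found in most tissues.

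The tissue label was borne out by its markers. The muscle creatine kinase Ckm read 13.55 to 13.88 and the mucosal keratin Krt13 read 13.20 to 13.72 in the 6 tongues. Most members were read by bright probe sets, with a mean log2 signal of 12 or more for 53 of 81. Only 4 had a mean log2 signal under 5, namely Ndufb4, Cox4i2, Cox6b2 and Cox7b2. The array medians ran from 4.45 to 4.60. The 3′ minus 5′ difference of the Gapdh control probe sets, a measure of RNA integrity, was 0.09, 0.20 and 1.67 in control tongues 1 to 3 and 0.47, 1.07 and 0.33 in 4NQO tongues 1 to 3. Control tongue 3 and 4NQO tongue 2 were the highest on this measure. The same difference for the actin control probe sets did not set them apart, at 0.75, 0.83 and 1.01 in controls and 1.12, 0.95 and 0.55 in 4NQO tongues.

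Most respiratory chain genes read slightly lower in 4NQO tongues, but no member passed the test. The log2 difference (4NQO minus control) was below 0 for 67 of 81 members with the deposited scaling and for 47 of 81 once the array medians were set equal (each array centred). The median over the members was -0.099, beside -0.014 over all genes tested, of which 52.3% were below 0. With each array centred, both medians moved upwards, to -0.024 and 0.061, and 38.5% of all genes were below 0. Centring shifts every gene by the same amount, so it cannot change the gap between them, which was -0.086. That gap was -0.163 after quantile normalization and -0.021 without control 1. The differences of the middle members were small, from -0.15 at the lower quartile to -0.03 at the upper one.

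With limma and Benjamini-Hochberg adjustment over all genes, 0 members were higher and 0 lower at an adjusted p under 0.05. Over all genes 0.126% were called higher and 0.0055% lower, so that few calls were made anywhere. At an unadjusted p under 0.05 in limma, 1 member was higher (Cox6a1) beside 6.68% of all genes, and 2 members were lower (Ndufa4l2 and Sdha) beside 3.74% of all genes. SAM, the permutation method named in the study's methods, called 0 members in either direction. Of all genes it called 83 higher and 0 lower. The methods' t-test at an unadjusted threshold took 0 members as higher and 2 as lower, beside 5.75% and 3.59% of all genes. The smallest adjusted p of a member in limma was 0.115. The arrays did bound the differences in signal. The 95% confidence interval lay within 0.5 of 0 for 67 of 81 members and excluded a fall of 1 for 80 of 81. Whether the brightest probe sets understate a change in RNA was not tested.

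The groups did not overlap for 11 members. All 3 4NQO tongues lay below all 3 controls for 10 members, beside 7.18% of all genes. These were Ndufa4l2, Ndufa6, Ndufv1, Sdha, Uqcr10, Cox4i1, Cox7a2l, Cox7b2, Cox8b and Atp5mpl, of which Ndufa6, Cox7b2 and Atp5mpl are named after their values were seen. All 3 lay above for 1 member, Cox6a1, beside 9.59% of all genes.

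**Figure D1:**
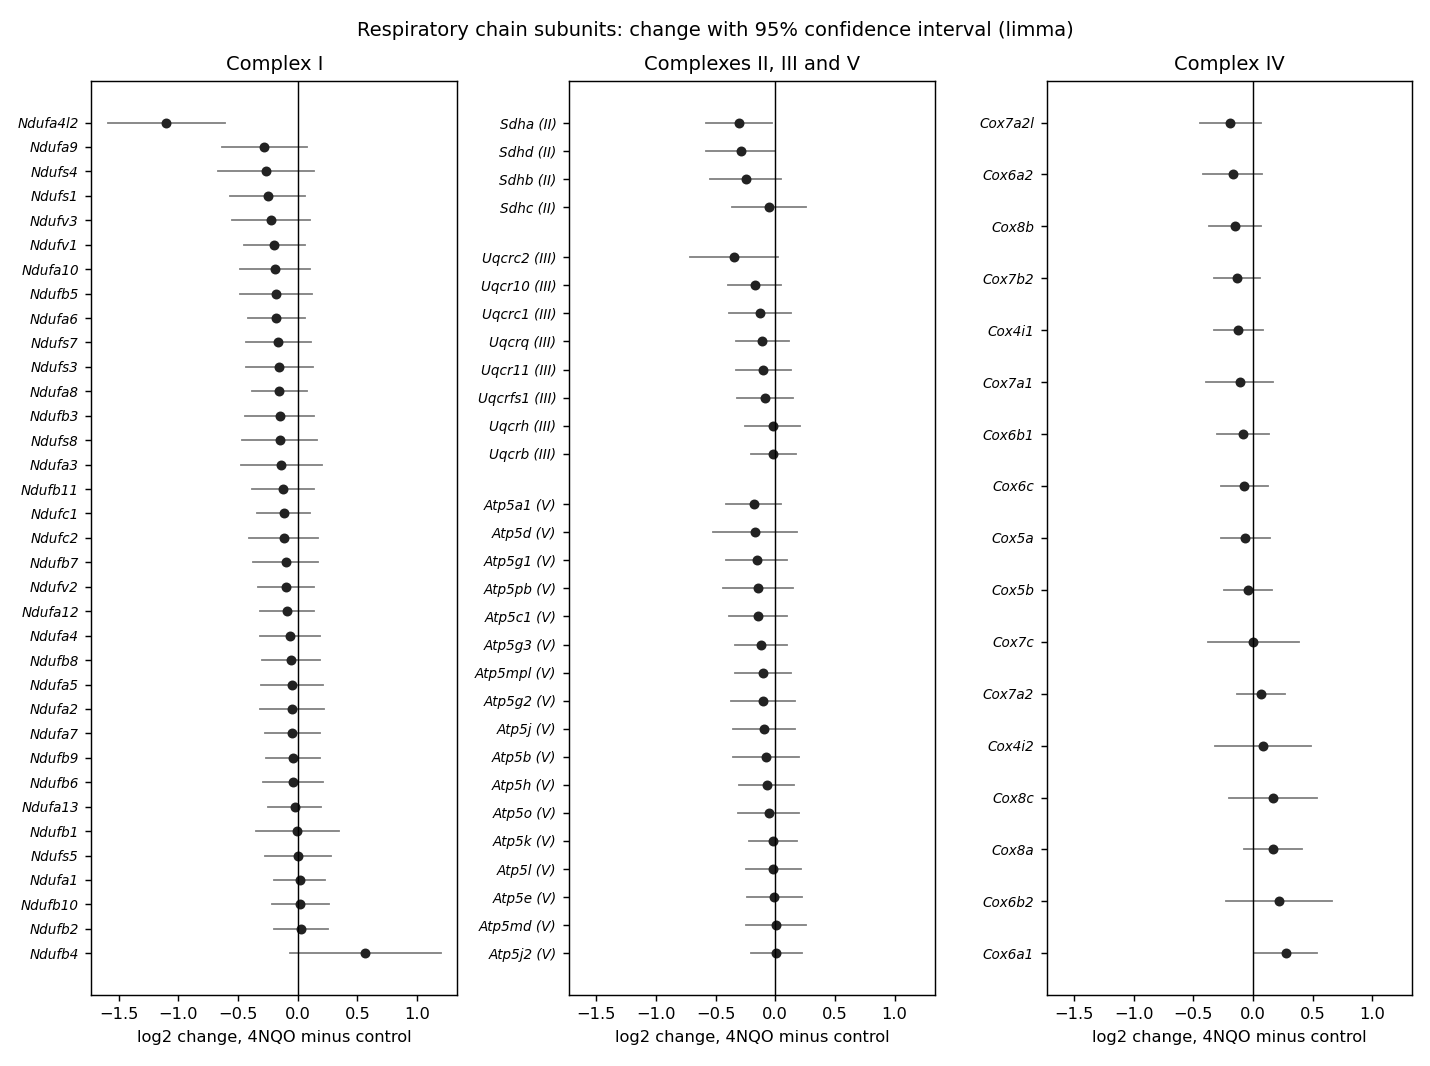
Each point is 1 of the 81 members, placed on the x axis by its log2 change (4NQO minus control, n = 3 tongues per group), and the line is its 95% confidence interval from limma. Most points lie left of 0 with the deposited scaling (67 of 81, and 47 of 81 with each array centred), nearly all intervals cross 0, and Ndufa4l2 stands farthest out at -1.10.

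The spread among control tongues was as wide as the difference between the groups. After the control mean of each gene was subtracted, the median over the 81 members was 0.093 in control 1, -0.0078 in control 2 and -0.093 in control 3. It was -0.104, -0.105 and -0.064 in 4NQO tongues 1, 2 and 3. Control 3 thus sat among the 4NQO tongues, and control 1 was the highest of the 6 tongues for 56 of 81 members (69.1%, beside 16.1% of all genes). The share of members in which all 4NQO tongues lay below both controls 1 and 2 was 50.6%, beside 14.5% of all genes, a count chosen after control 3 was seen to lie low.

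Leaving out a control tongue changed the size of the difference. Without control 1 the members' median was -0.044 and without control 3 it was -0.145, while the median of all genes was -0.022 and 0.0032. The number of members lower at an unadjusted p under 0.05 in limma was 11 (13.6%) without control 3, beside 4.78% of all genes in that fit, and 1 without control 1, beside 3.32%. Control 3 was also the array with the largest Gapdh 3′ minus 5′ difference. With that difference as a covariate the members' median was -0.102, and 8 members (9.88%) were lower at an unadjusted p under 0.05, beside 5.56% of all genes. Without both control 3 and 4NQO 2 the median was -0.125.

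**Figure D2:**
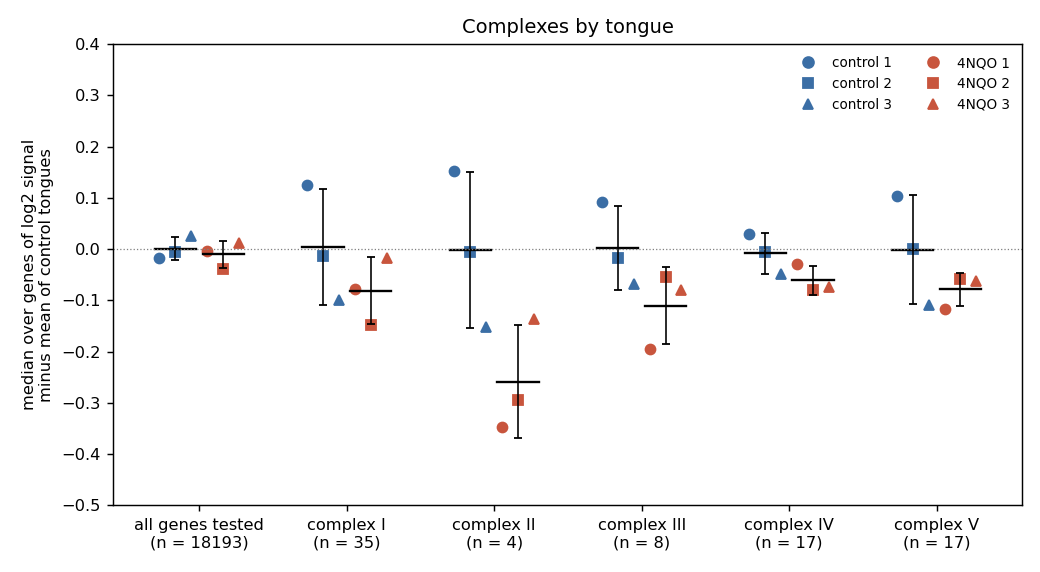
For each complex and for all genes tested, the y axis gives the log2 signal relative to the control mean, as a median over genes, with 1 symbol per tongue and the mean and SD of each group in black. In every complex control 1 is the highest control and control 3 the lowest, and complex II has the lowest 4NQO symbols. The medians shown use the deposited scaling, and that of complex IV turns to 0.013 with each array centred.

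Complex I takes electrons from NADH and is the largest of the complexes. Of its 35 measured subunits, 30 read lower in 4NQO tongues and 5 higher, with a median difference of -0.12, and 0 passed the adjusted threshold. With each array centred, 21 were lower and 14 higher, with a median of -0.041. Ndufs1, the iron-sulphur subunit that carries electrons through the matrix arm, read 12.29, 12.10 and 11.81 in control tongues and 11.73, 11.84 and 11.88 in 4NQO tongues. Its difference was -0.25 (95% interval -0.57 to 0.06, limma adjusted p = 0.56). Control 3 lay between 2 of the 4NQO tongues, so that the groups overlapped.

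Ndufv1, which binds NADH and the flavin that accepts its electrons, read 11.89, 11.87 and 11.64 in controls and 11.63, 11.56 and 11.63 in 4NQO tongues. The groups did not overlap, although control 3 lay just above the 4NQO tongues, and the difference was -0.19 (limma adjusted p = 0.58). Among the accessory subunits, Ndufa9 had a difference of -0.28 and Ndufs4, lost in some forms of Leigh syndrome, -0.27; both are named after their values were seen. The Ndufs4 difference came mainly from 4NQO tongue 1, at 10.83 beside 11.43 and 11.39 in the other 4NQO tongues and 11.37 to 11.62 in controls. At the other end Ndufa1, Ndufb2, Ndufb10 and Ndufs5 lay between 0.0033 and 0.03.

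The member farthest from 0 was Ndufa4l2, a paralog of Ndufa4 that is known as a target of the hypoxia-inducible factor HIF-1 and as a restraint on complex I activity in low oxygen. It read 8.51, 8.19 and 8.23 in control tongues and 7.37, 6.78 and 7.48 in 4NQO tongues. Every 4NQO tongue lay below every control. The control mean was 2.15-fold the 4NQO mean (difference -1.10, 95% interval -1.59 to -0.61), and the adjusted p in limma was 0.115, above the threshold. Under the alternatives run, the difference ranged from -1.24 to -0.88 and the adjusted p from 0.069 to 0.337. It has 1 probe set on the array, so no second reading was available.

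Ndufa4 itself, named as a complex I subunit and since assigned to complex IV, read 12.92, 12.65 and 12.63 in controls and 12.66, 12.63 and 12.73 in 4NQO tongues. The difference was -0.06 (95% interval -0.31 to 0.19), and the groups overlapped throughout. Counting both paralogs under complex IV, a choice made after seeing the data, left the complex I median at -0.116 and the complex IV median at -0.063.

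Ndufb4 had the highest positive difference in complex I, 0.57 (95% interval -0.06 to 1.2), but on a dim probe set that read 3.32, 3.52 and 2.62 in controls and 4.16, 3.47 and 3.53 in 4NQO tongues. The groups overlapped. The brighter probe sets that Ndufb4 shares with its copies Ndufb4b and Ndufb4c differed by 0.03 and -0.05, so the 0.57 was not seen where the signal was strong. The shared probe set of Ndufs6 and Ndufs6b differed by -0.10 and the brighter of those shared by Ndufa11 and Ndufa11b by -0.07.

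Complex II, succinate dehydrogenase, is both a respiratory complex and an enzyme of the tricarboxylic acid (TCA) cycle. It had the lowest median of the 5 complexes, -0.27, and all 4 of its subunits read lower, with 0 past the adjusted threshold. With each array centred, 3 of 4 were lower and the median was -0.20. Sdha, the flavoprotein that oxidises succinate, read 12.18, 12.05 and 11.95 in control tongues and 11.63, 11.72 and 11.93 in 4NQO tongues. The groups did not overlap, but 4NQO tongue 3 lay only just under control 3. The difference was -0.30 (95% interval -0.58 to -0.02, limma adjusted p = 0.44), and a second Sdha probe set of like brightness gave -0.18.

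Sdhd, a membrane anchor, read 12.11, 11.94 and 11.73 in controls and 11.55, 11.63 and 11.74 in 4NQO tongues. 4NQO tongue 3 was level with control 3, and the difference was -0.29 (95% interval -0.58 to 0.00). A second, dim Sdhd probe set gave 0.30, and averaging the 2 turned the direction, to 0.0062. The iron-sulphur subunit Sdhb read 12.87, 12.64 and 12.44 in controls and 12.33, 12.37 and 12.51 in 4NQO tongues, a difference of -0.25. Here too 4NQO tongues 1 and 2 lay below all controls and 4NQO tongue 3 among them. The other anchor, Sdhc, read 10.75, 10.65 and 10.56 against 10.46, 10.51 and 10.84, a difference of -0.05, with 4NQO tongue 3 the highest of all 6. A second, nearly as bright Sdhc probe set gave -0.26.

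The promoters of respiratory chain genes are known to bind the nuclear respiratory factor NRF1, among others. The windows from 250 bases before to 50 bases after the RefSeq transcription start (GRCm38.p6) could be matched for 66 of 81 members. The NRF1 core GCGCANGCG, searched on both strands, was in 18 of 66 of them (27.3%), beside 11.5% of the 14368 tested genes with a window and 7.03% of all 27025 windows. Members with the core had a median difference of -0.086 and those without it -0.0999, so the promoters that hold these letters were not set apart in the arrays. The stretches of 250 bases before the start of Sdha (chr13:74350241-74350490, minus strand) and Sdhd (chr9:50603850-50604099, minus strand), the 2 lowest members of complex II, are shown with the NRF1 core in capitals.
Sdha: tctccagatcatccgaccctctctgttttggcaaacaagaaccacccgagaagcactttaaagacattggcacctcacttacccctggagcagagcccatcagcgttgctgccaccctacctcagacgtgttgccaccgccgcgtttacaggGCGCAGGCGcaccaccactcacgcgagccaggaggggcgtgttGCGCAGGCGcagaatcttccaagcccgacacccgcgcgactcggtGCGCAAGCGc
Sdhd: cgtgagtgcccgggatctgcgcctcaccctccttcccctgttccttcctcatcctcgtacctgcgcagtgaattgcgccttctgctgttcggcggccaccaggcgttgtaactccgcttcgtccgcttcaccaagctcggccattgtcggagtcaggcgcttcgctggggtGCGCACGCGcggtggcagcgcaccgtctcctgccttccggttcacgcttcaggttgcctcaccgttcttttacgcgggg
Sdha held the core at 3 places and Sdhd at 1 place. A match is a stretch of letters and no measure of binding.

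Other motifs were at lower shares of the member windows. The YY1 motif AAGATGGCG was in 9.09% of the member windows and 2.54% of those of tested genes, the ETS motif CCGGAAGT in 7.58% and 6.65%, and the ERR motif TCAAGGTCA, bound by oestrogen-related receptors, in 3.03% and 0.404%. The antioxidant response element core TGACNNNGC was in 12.1% and 16.1%. All were searched on both strands, and none of these strings contains another. The transcript of Nrf1 itself read 6.69, 6.86 and 6.94 in controls and 6.58, 6.86 and 6.81 in 4NQO tongues (difference -0.08); it is named after its values were seen.

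Complex III passes electrons from ubiquinol to cytochrome c. All 8 of its subunits read lower in 4NQO tongues with the deposited scaling, with a median difference of -0.105, and 0 passed the adjusted threshold. With each array centred, 6 of 8 were lower and the median was -0.030. Uqcrc2, a core protein of the matrix side, had the lowest value and read 12.59, 12.26 and 11.97 in controls against 11.84, 12.04 and 11.90 in 4NQO tongues. Control 3 lay below 4NQO tongue 2, and the difference was -0.35 (95% interval -0.72 to 0.02, limma adjusted p = 0.50). A second, dimmer probe set gave -0.13.

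The small subunit Uqcr10 read 12.73, 12.59 and 12.57 in controls and 12.39, 12.51 and 12.46 in 4NQO tongues, with no overlap and a difference of -0.17. The other core protein, Uqcrc1, differed by -0.13 and the Rieske iron-sulphur protein Uqcrfs1 by -0.09. Uqcrb, which borders the ubiquinone site, was level at -0.02 with the deposited scaling and turned to 0.059 with each array centred. Its 6 tongues spanned 13.12 to 13.17.

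**Figure D3:**
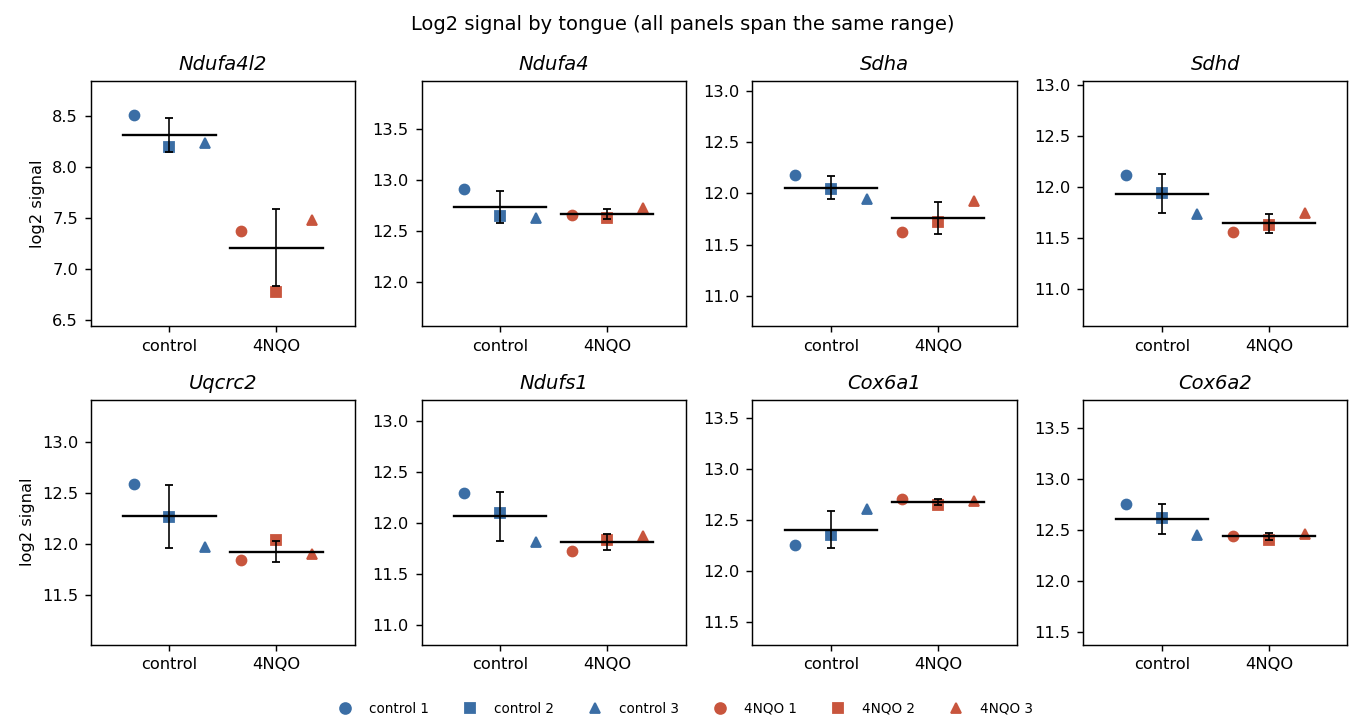
Log2 signal of 8 members in each tongue, with circles, squares and triangles for replicates 1, 2 and 3 and the mean and SD of each group (n = 3) in black; all panels span the same range on the y axis. The groups are separate for Ndufa4l2, separate by a narrow margin for Sdha and Cox6a1, and overlap for the other 5 genes.

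Complex IV, cytochrome c oxidase, was the most mixed, with 10 of 17 subunits lower and 7 higher, a median of -0.062 and 0 past the adjusted threshold. That median turned to 0.013 with each array centred, when 7 were lower and 10 higher, and to 0.0099 when all probe sets of a gene were averaged. The only member with higher values in every 4NQO tongue belongs here. Cox6a1, the form of subunit VIa made in most tissues, read 12.25, 12.35 and 12.61 in controls and 12.70, 12.64 and 12.68 in 4NQO tongues. The lowest 4NQO tongue lay just above control 3, and the difference was 0.27 (95% interval 0.01 to 0.54, limma adjusted p = 0.46). A second Cox6a1 probe set gave 0.39.

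Its counterpart Cox6a2, made in heart and skeletal muscle, read 12.75, 12.62 and 12.45 in controls and 12.44, 12.40 and 12.46 in 4NQO tongues. Control 3 lay among the 4NQO tongues, and the difference was -0.17. The muscle form of subunit VIII, Cox8b, read 13.50, 13.33 and 13.29 against 13.16, 13.25 and 13.25, a difference of -0.15. All 4NQO tongues lay below all controls, controls 2 and 3 by a narrow margin. The form of most tissues, Cox8a, read 11.86, 11.98 and 11.95 against 12.18, 11.96 and 12.16, a difference of 0.17 with 4NQO tongue 2 among the controls; a second bright probe set gave 0.23.

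For subunit VIIa, the muscle form Cox7a1 differed by -0.11 and the general form Cox7a2 by 0.07, with overlap in both. The related Cox7a2l read 11.10, 11.21 and 11.27 in controls and 11.06, 10.89 and 11.06 in 4NQO tongues. Its difference was -0.19 without overlap. Thus, for subunits VIa, VIII and VIIa, all 3 muscle forms were below 0 and all 3 general forms above 0. These 6 directions were the same under every alternative run, each array centred included. Cox7a1 came as near to 0 as -0.0093 and Cox7a2 as 0.0083. The general forms Cox4i1 and Cox6b1, of other subunits, were below 0, at -0.12 and -0.08.

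Whether the muscle and general forms moved unequally was tested by the difference within each array, over 4 pairs and with an exact two-sided permutation test across the 6 tongues. With 3 tongues against 3 the smallest p this test can give is 0.1. Cox6a2 minus Cox6a1 was lower in 4NQO tongues by 0.44 on average (change -0.44, exact permutation p = 0.1, 0.2 after Benjamini-Hochberg adjustment over the 4 pairs). The 3 4NQO tongues lay at -0.46, -0.45 and -0.42 from the control mean, and control 3 was close to them at -0.36. Cox8b minus Cox8a changed by -0.32 (exact permutation p = 0.1, adjusted 0.2), and Cox7a1 minus Cox7a2 by -0.18 (exact permutation p = 0.3, adjusted 0.3). Without control 1 the first of these was -0.30 and without control 3 it was -0.62.

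**Figure D4:**
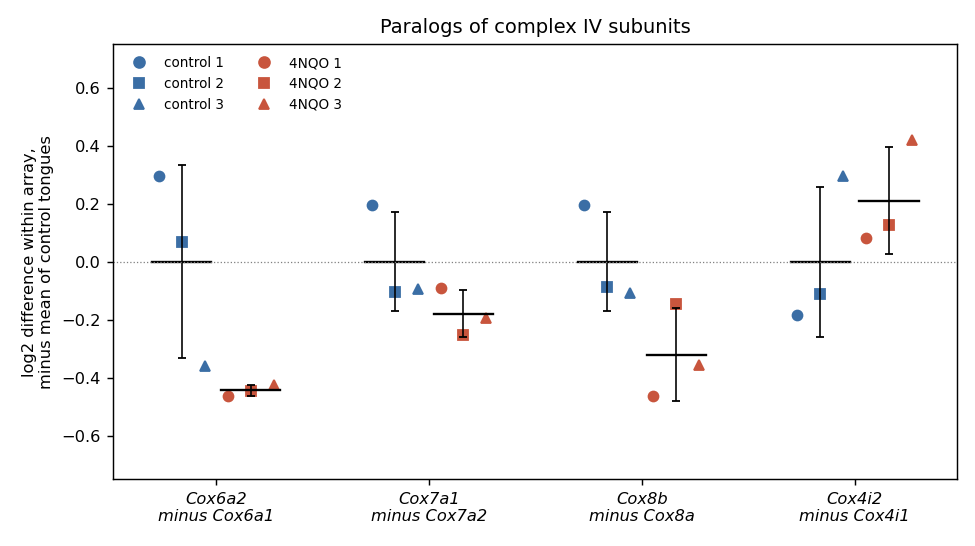
For 4 pairs of complex IV paralogs, the y axis gives the log2 difference of the 2 genes within an array, relative to the mean of the control tongues, with 1 symbol per tongue and the mean and SD of each group (n = 3) in black. The 4NQO tongues lie below the controls for Cox6a2 minus Cox6a1 and for Cox8b minus Cox8a, and overlap with them for the other pairs.

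The fourth pair, Cox4i2 minus Cox4i1, changed by 0.21 (exact permutation p = 0.3, adjusted 0.3). Cox4i1, the general form of the regulatory subunit IV, read 13.04, 13.08 and 12.98 in controls and 12.97, 12.84 and 12.92 in 4NQO tongues, a difference of -0.12 without overlap. Cox4i2, the form of lung and low oxygen, was dim at 4.14 to 4.62, and its difference of 0.09 turned to -0.003 without control 1. The testis forms Cox6b2 and Cox8c were dim as well, at 0.22 and 0.17, while Cox6b1, the general form of subunit VIb, differed by -0.08. Cox5a, a core-proximal subunit, differed by -0.06. Cox7c was read by a dim probe set, with a mean of 5.41 in both groups, so that its 0.00 gives little information.

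The 250 bases before the start of Cox6a1 (chr5:115348959-115349208, minus strand) and Cox8b (chr7:140900447-140900696, minus strand) are shown because these genes differed in opposite directions. Capitals mark the NRF1 core GCGCANGCG in Cox6a1 and the E-box CAGCTG, a sequence bound by muscle regulatory factors, in Cox8b. The E-box was searched after values were seen.
Cox6a1: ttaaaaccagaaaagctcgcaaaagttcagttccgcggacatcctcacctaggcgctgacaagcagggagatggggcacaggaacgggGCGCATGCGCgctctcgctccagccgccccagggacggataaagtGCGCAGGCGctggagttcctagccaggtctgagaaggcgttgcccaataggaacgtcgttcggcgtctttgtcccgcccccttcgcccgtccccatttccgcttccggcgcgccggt
Cox8b: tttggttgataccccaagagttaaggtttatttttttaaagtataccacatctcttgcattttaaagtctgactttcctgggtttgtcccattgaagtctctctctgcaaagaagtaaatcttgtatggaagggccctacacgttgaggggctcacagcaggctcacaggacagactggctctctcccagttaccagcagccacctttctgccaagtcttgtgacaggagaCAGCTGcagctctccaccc
The core lay at 2 places in Cox6a1, of which the upstream one reads as the core on both strands, and nowhere in the Cox8b window. The E-box was in 9.09% of the member windows and in 18.8% of those of tested genes. The TATA box TATAAA, also searched after values were seen, was in 12.1% and 11.5%. Cox6a2 was not among the matched windows.

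Complex V makes ATP from the proton gradient. Of its 17 subunits 15 read lower and 2 higher in 4NQO tongues, with a median difference of -0.092 and 0 past the adjusted threshold, and its values were the closest together, from -0.18 to 0.0077. With each array centred, 10 were lower and 7 higher, with a median of -0.017. Atp5a1, the alpha subunit of the catalytic head, read 13.49, 13.38 and 13.22 in controls and 13.12, 13.23 and 13.20 in 4NQO tongues. Control 3 fell just short of the highest 4NQO tongue, and the difference was -0.18 (95% interval -0.41 to 0.05, limma adjusted p = 0.57).

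The catalytic beta subunit Atp5b read 13.03, 12.93 and 12.64 against 12.73, 12.85 and 12.78, so that the 4NQO tongues lay between controls 2 and 3. Its difference was -0.08 and turned to 0.0012 without control 1. The 3 genes for the c subunit of the rotor ring, Atp5g1, Atp5g2 and Atp5g3, make the same mature protein from different precursors and differed by -0.15, -0.10 and -0.12. Atp5j2, a subunit of the membrane part, was level at 0.01, and its direction changed with the scaling and the choice of probe set. Atp5mpl, a small associated protein, read 11.77, 11.72 and 11.74 in controls and 11.52, 11.69 and 11.71 in 4NQO tongues, without overlap and with a difference of -0.10.

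A second reading was available for 48 members with more than 1 probe set. Of their 83 other probe sets, 58 had the same direction as the one used and 25 the opposite. Among the 47 within 2 log2 units of the brightness of the one used, 38 had the same direction. None passed the adjusted threshold in limma.

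Genes of neighbouring mitochondrial functions were set beside the chain. In the TCA cycle and pyruvate dehydrogenase list, 16 of 17 measured genes read lower in 4NQO tongues, with a median of -0.14 and 0 past the adjusted threshold (13 of 17 and -0.070 with each array centred). Pdhx, a component of pyruvate dehydrogenase, had -0.40, and Dlst, of the oxoglutarate dehydrogenase complex, -0.30. Of the assembly factors that build the complexes, 29 of 40 were lower with a median of -0.10 (23 of 40 and -0.028 with each array centred). The complex III factor Ttc19 read 8.09, 8.12 and 7.83 in controls and 7.60, 7.64 and 7.58 in 4NQO tongues (limma adjusted p = 0.38). Of the electron carriers and related parts that the name rule does not take, 12 of 15 were lower with a median of -0.20 (10 of 15 and -0.13 with each array centred). Atpif1, the inhibitor of ATP synthase hydrolysis, was at 0.51 and overlapped because 4NQO tongue 3, at 8.59, lay under control 3, at 8.66.

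The mitochondrial ribosomal proteins lacked this tilt with the deposited scaling. They had 42 of 76 genes lower and a median of -0.019, near that of all genes. With each array centred, 26 of 76 were lower and the median was 0.056. After quantile normalization 47 of 76 were lower with a median of -0.042. Over all genes 47.8% were then below 0, with a median of 0.013. The biogenesis factors did lean lower, 12 of 16 with a median of -0.096 (10 of 16 and -0.021 with each array centred). Among membrane and carrier proteins 11 of 15 were lower with a median of -0.071, a lean that was lost with each array centred (7 of 15 and 0.0042). The coactivator Ppargc1a (PGC-1α) had -0.48, though control 3, at 8.80, was the lowest of the 6 tongues, and its relative Pprc1 had 0.49 without overlap. Neither they nor any other gene of these lists passed the adjusted threshold.

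The exception lay among the uncoupling proteins, which let protons return past ATP synthase or, in the case of Ucp3 of skeletal muscle, have a role in fatty acid handling. Ucp3 read 8.92, 9.34 and 9.23 in controls and 7.55, 7.76 and 7.73 in 4NQO tongues, with no overlap. It fell by 1.48 on the log2 scale (limma adjusted p = 0.017) and was the 1 gene of all 18193 that limma called lower. SAM called 0 genes lower. Ucp1 of brown fat was dim, at 2.58 to 3.32, with a difference of -0.34. The respiratory chain genes of the same arrays lay within a far narrower range, apart from Ndufa4l2.

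Markers of the cell types of the tongue differed in the same arrays. In a bulk tongue, fewer muscle cells and less RNA per muscle cell cannot be told apart, and the same holds for every cell type. Of 30 skeletal muscle genes 29 read lower in 4NQO tongues with a median of -0.16 and 0 past the adjusted threshold (25 of 30 and -0.083 with each array centred). Their medians were 0.14, 0.08 and -0.19 in controls 1 to 3 and -0.10, -0.33 and -0.08 in 4NQO tongues 1 to 3, so that control 3 was low for muscle genes as it was for the respiratory chain. The sets of slow and fast fibre genes had medians of -0.22 and -0.15. These were -0.14 and -0.078 with each array centred, and -0.17 and -0.18 after quantile normalization. The slow median was the value of Myl2, a dim gene at 2.92 to 4.08, below every array median, whose groups overlapped. Myh7 of the slow set was as dim, with means of 3.24 in controls and 3.04 in 4NQO tongues. Whether slow and fast fibre genes moved unequally was not tested. Tnnt1, the slow troponin T, read 7.58, 7.23 and 7.08 in controls and 6.55, 5.81 and 6.77 in 4NQO tongues, without overlap (difference -0.92, limma adjusted p = 0.28).

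The lists of keratinocytes and cycling cells lay above 0. Of 16 squamous keratinocyte genes 13 read higher, with a median of 0.31, and all 7 genes of cycling cells did, with a median of 1.06 and no overlap in any of the 7, and both medians were higher still with each array centred. For none of these lists did a gene pass the adjusted threshold. The fibroblast median was -0.22, with 6 of 7 genes lower, and the leukocyte median was 0.23. The endothelial median was -0.024, turning to 0.051 with each array centred, and the adipocyte median was 0.017. The part of these shifts in the respiratory chain values was not tested.

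**Figure D5:**
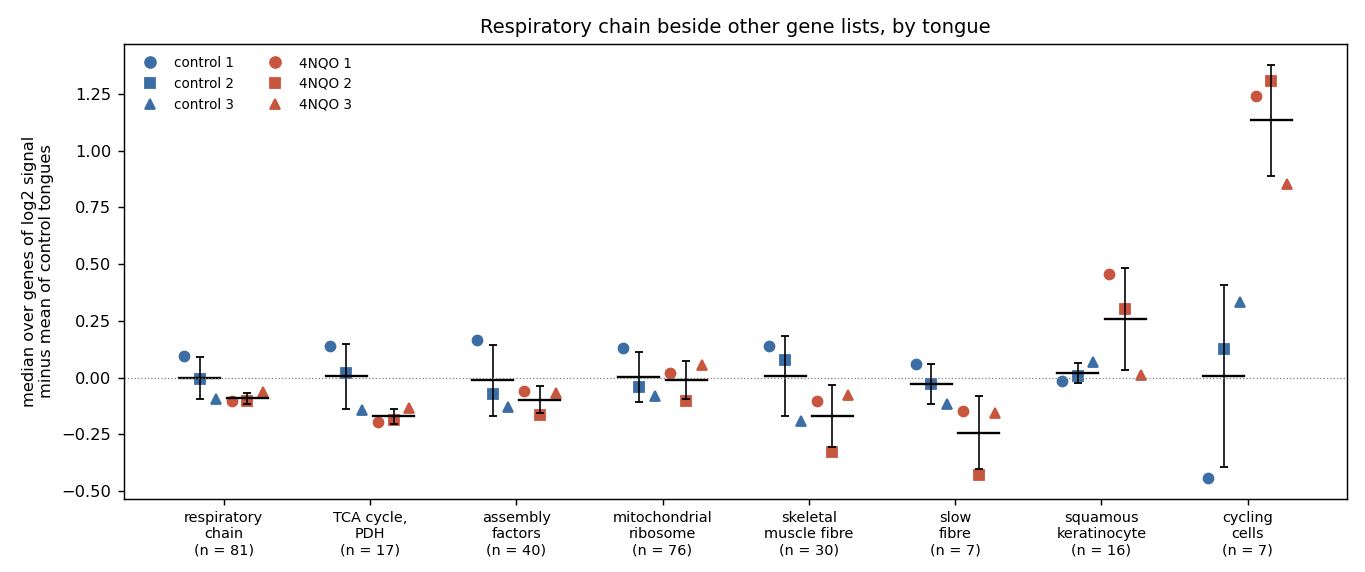
The y axis gives the log2 signal relative to the control mean, as a median over the genes of each list, with 1 symbol per tongue, the number of genes under each list and the mean and SD of each group in black. The respiratory chain, TCA cycle and skeletal muscle fibre lists all have control 3 among the 4NQO tongues. In the slow fibre list control 3, at -0.115, lies above all 4NQO tongues, the highest of which is at -0.145. The cycling list is higher in all 4NQO tongues than in any control. Values use the deposited scaling, under which 67 of 81 respiratory chain genes are below 0 (47 of 81 with each array centred).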

How the data were processed

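Expression was measured on Affymetrix arrays in 3 control and 3 4NQO tongues, 1 mouse per array. Each deposited value is a log2 signal of 1 probe set, after pre-processing and normalization by the authors with Bioconductor packages. How they normalized is not stated in the sources used here. The number of arrays limits the precision. Of 45101 probe sets, 34945 annotated to 1 gene were kept, and each gene was read from its probe set of highest mean; 932 probe sets of several genes and 64 array controls were left out. Symbols were looked up by Entrez ID (GRCm38.p6): 81 of 81 members matched and 0 changed.

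limma 3.58.1 in R 4.3.3 (lmFit, eBayes with an intensity trend) was fitted to all 18193 genes with Benjamini-Hochberg adjustment (threshold 0.05). Promoter sequences are from RefSeq (GRCm38.p6). Members, gene lists and comparisons were chosen with earlier results of these data known; the E-box and TATA motifs and the grouping of Ndufa4 under complex IV were added after values were seen. Genes named by rule were, per complex, the 2 of smallest p and both extremes, paralogs, core subunits and up to 3 of smallest p per list. Other members and list genes are marked where named, except for Ndufa1, Ndufb2, Ndufb10, Ndufs5, Cox7c, Myl2 and Myh7. These too were named after values were seen. Ckm and Krt13 were taken as tissue markers. Alternatives were other normalizations, probe set choices, variance models, a replicate block, each array left out, a Gapdh covariate, SAM and the methods' t-test. The test was checked on simulated data.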

Additional observations from a re-analysis of the deposited data

How the results depend on the processing

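No member passed the adjusted threshold under any alternative run, SAM and the methods' t-test with adjustment included. The members' median was below 0 under all 13 alternatives (-0.15 to -0.024), and the number of members below 0 ran from 47 to 73. It was -0.024 with each array centred on its median. Leaving out each tongue in turn gave -0.145 to -0.044 for the members and -0.096 to -0.0093 for complex IV. The complex IV median was -0.098 after quantile normalization, 0.013 with each array centred and 0.0099 with all probe sets of a gene averaged. Of the members named by rule, 8 changed direction under an alternative, most of them near 0 but Sdhd at -0.29 among them. Other members named in the text were not counted here. Ndufa1, Ndufb2, Ndufb10 and Ndufs5 also turned, since after quantile normalization complex I had 34 members lower and only 1, Ndufb4, higher. With each array centred, Cox5a was at 0.013, Ndufa4 at 0.012, Sdhc at 0.023 and Uqcrb at 0.059. With probe sets averaged, Cox5a was at 0.083, Sdhd at 0.0062, Uqcrb at 0.085 and Atp5j2 at -0.099. Atp5j2 was at -0.059 after quantile normalization and at -0.035 with plain probe sets (suffix _at), where Uqcrb was at 0.19. Over the left-out tongues Atp5b ran from -0.19 to 0.0012, Cox4i2 from -0.023 to 0.21, Ndufa4 from -0.11 to 0.028, Atp5j2 from -0.025 to 0.046 and Sdhc from -0.17 to 0.019. The cause of these turns was not tested. Members lower at an unadjusted p under 0.05 in limma numbered 7 after quantile normalization (beside 3.45% of all genes), 8 with the Gapdh covariate (5.56%), 6 without both arrays of largest Gapdh difference (3.11%) and 11 without control 3 (4.78%). The number was 1 with each array centred (1.87%), with probe sets averaged (4.19%) and without the intensity trend (3.72%). It was also 1 without control 1 (3.32%), control 2 (2.75%), 4NQO 1 (3.88%) or 4NQO 2 (2.31%). It was 2 without 4NQO 3 (3.92%) and without dim genes (3.93%), and 3 with plain probe sets (3.96%) and robust eBayes (3.84%). The replicate numbers did not pair the tongues: deviations of same-numbered arrays correlated at 0.29, -0.51 and 0.05 across genes. With the replicate number as a block, 0 members passed, and over all genes 2 were called higher and 0 lower. In that fit 1 member was lower at an unadjusted p under 0.05, beside 2.94% of all genes. With 3 arrays per group, small differences of the size seen in most members lie within the spread between tongues.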
